A study of Mus musculus with 14 samples.

Results

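Ion channel and neurotransmitter receptor genes were examined in a map of open chromatin of the mouse blood system. Members were all genes of the deposited peak list whose name begins with Kcn (potassium channels), Scn and a digit (sodium channels), Cacn (calcium channels), Gabr (GABA-A receptors), Gria (AMPA receptors), Grik (kainate receptors) or Grin and a digit (NMDA receptors). This gave 698 of the 92842 peaks and 146 of the 19105 gene names in the list. A RefSeq gene table held 174 genes under the same naming rule, 169 of them protein-coding and 5 non-coding, so 28 members had no peak of their own. Scn2a of the table is listed as Scn2a1.

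The map was made by ATAC-seq, in which the transposase Tn5 cuts and tags accessible DNA, from cells sorted by antibody staining from wild-type C57BL/6 mice that were 8 to 12 weeks old. The 7 populations were MPP (multipotent progenitor), CMP (common myeloid), CLP (common lymphoid), GMP (granulocyte/macrophage), MEP (megakaryocyte-erythroid) and ProB (B cell) progenitors from bone marrow and ProT (T cell) progenitors from thymus, with 2 libraries each and 14 in all. The labels name no treatment or engineered allele, and whether both libraries of a population share an animal is not stated. All values come from 1 merged list without a column per library, so a peak can come from any of the 7 populations, depth is unknown, there are no replicates and no test between populations was made. A site open in few cells and a site slightly open in many cannot be told apart in such a list.

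Voltage-gated channels are built from a pore-forming subunit that opens when the membrane potential changes and from auxiliary subunits that set its gating and its delivery to the membrane. GABA-A receptors pass chloride and inhibit neurons, while AMPA, kainate and NMDA receptors pass cations in response to glutamate and excite them. Outside the nervous system many of these genes are held silent, in part by the repressor REST, but some potassium channels are well known in blood, such as Kcna3 in T cells and Kcnn4, the Gardos channel of red cells. The naming rule also takes in genes best known from other tissues, such as Scn4a and Cacna1s of skeletal muscle and Kcnj1 of the kidney.

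The following promoter windows, from RefSeq in build GRCm38.p6, run from 250 bases before to 50 bases after a transcription start site (TSS) and are shown 5′ to 3′. Kcnn4, Kcna3 and Kcnj2 are shown because their windows lay wholly or mostly in a peak, and Kcnh8 and Kcnj15 because both genes had many peaks but none in the window. Capitals mark matches on either strand to GGGCGG (SP and KLF factors, CCGCCC on the other strand), AGATAA (the site of blood factors such as Gata1) or TATAAA (the core promoter box of that name). Also searched, without a match in these 5 windows, were TCAGCACC and GGACAGCG (the left and right parts of the REST site), CCGGAAGT (ETS) and TGTGGTT (RUNX).
Kcnn4 (chr7:24370013-24370312, plus strand): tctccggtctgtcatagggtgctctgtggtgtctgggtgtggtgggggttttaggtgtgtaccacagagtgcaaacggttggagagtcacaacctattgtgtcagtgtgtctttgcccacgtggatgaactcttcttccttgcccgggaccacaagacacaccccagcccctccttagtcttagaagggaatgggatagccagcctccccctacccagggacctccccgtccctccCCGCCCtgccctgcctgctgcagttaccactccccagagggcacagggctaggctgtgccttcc
Kcna3 (chr3:107035912-107036211, plus strand): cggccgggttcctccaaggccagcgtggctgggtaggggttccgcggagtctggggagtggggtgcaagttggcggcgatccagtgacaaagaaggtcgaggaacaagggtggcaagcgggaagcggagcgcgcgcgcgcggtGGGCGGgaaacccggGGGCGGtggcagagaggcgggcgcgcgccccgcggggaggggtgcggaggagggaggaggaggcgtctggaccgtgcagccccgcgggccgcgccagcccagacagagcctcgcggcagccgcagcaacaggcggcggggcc
Kcnj2 (chr11:111065914-111066213, plus strand): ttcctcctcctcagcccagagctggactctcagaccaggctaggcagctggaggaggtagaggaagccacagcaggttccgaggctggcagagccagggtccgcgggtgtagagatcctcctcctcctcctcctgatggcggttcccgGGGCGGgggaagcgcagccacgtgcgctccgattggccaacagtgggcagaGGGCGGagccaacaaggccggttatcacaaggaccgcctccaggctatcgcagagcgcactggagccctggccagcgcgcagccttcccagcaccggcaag
Kcnh8 (chr17:52602459-52602758, plus strand): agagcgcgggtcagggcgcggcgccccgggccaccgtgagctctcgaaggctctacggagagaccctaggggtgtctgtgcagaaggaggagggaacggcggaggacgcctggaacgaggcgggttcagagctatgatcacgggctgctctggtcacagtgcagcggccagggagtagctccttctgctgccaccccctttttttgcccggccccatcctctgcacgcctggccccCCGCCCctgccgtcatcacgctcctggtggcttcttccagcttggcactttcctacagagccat
Kcnj15 (chr16:95257308-95257607, plus strand): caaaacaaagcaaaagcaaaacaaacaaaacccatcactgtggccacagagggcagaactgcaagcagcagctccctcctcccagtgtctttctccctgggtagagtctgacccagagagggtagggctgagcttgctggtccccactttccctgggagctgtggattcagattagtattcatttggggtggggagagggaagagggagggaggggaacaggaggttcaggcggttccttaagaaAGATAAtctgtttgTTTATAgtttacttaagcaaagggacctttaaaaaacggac

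The Kcnn4 window lay almost wholly in its peak (chr7:24369811-24370309, 297 of the 300 bases) although it held only 6 CpG dinucleotides. The Kcna3 window held 37 CpG dinucleotides at 75.0% G+C, and 210 of its bases lay in the peak chr3:107036002-107036500. The Kcnj2 window, with 18 CpG dinucleotides, lay entirely in the peak chr11:111065723-111066221. The Kcnh8 window was as rich in G+C as that of Kcnj2 (66.0% and 66.7%) and held 21 CpG dinucleotides, but the nearest peak began 1063 bp away. The Kcnj15 window held 2 CpG dinucleotides, and 5224 bp separated it from the nearest peak. Its match to TATAAA was on the other strand (TTTATA) and lay in the 50 bases after the TSS. A match to GGGCGG is common, being present in 46.3% of the 17492 coding gene promoters in the RefSeq table, against 9.96% for AGATAA and 13.3% for TATAAA. The shares for the unmatched motifs were 1.61% for TCAGCACC, 1.66% for GGACAGCG, 5.29% for CCGGAAGT and 4.84% for TGTGGTT. CpG and motif content were not compared over all members, because the promoter table holds only 124 of the 169 coding members (73.4%) and the rest have no window there.

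The first question was which members have a peak at the promoter, taken as a peak centre within 1 kb of a TSS, and which have distal peaks only. Of the 169 coding members, 71 had a promoter peak (42.0%, exact 95% interval 34.5 to 49.8), against 55.5% of all 21887 coding genes. A further 72 members (42.6%, 35.0 to 50.4) had distal peaks only, against 19.7% of all coding genes, and 26 (15.4%, 10.3 to 21.7) had no peak, against 24.8%. Members were therefore given a peak more often than coding genes at large (84.6% against 75.2%), but among genes with a peak only 49.7% of members had one at the promoter, against 73.8%. These shares are not matched for gene length, and members are longer genes (median 54.4 kb against 17.2 kb). The intervals cover counting error only, and genes of 1 family or cluster are not independent of each other.

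Lists of related genes show where the members stand. Other neuronal channels and receptors (HCN, nicotinic, glycine, serotonin, metabotropic glutamate, GABA-B and acid-sensing) had a promoter peak in 15 of 38 genes (39.5%, exact interval up to 56.6). Synaptic partners, such as scaffolds, neurexins and neuroligins, had one in 14 of 26 (53.8%). Channels known in blood cells, such as the calcium entry genes Orai1 and Stim1, the mechanosensitive channel gene Piezo1 and the proton channel gene Hvcn1, had one in 29 of 29 genes (interval from 88.1%). That list was not limited to genes particular to blood, and also holds, for example, Vdac1, Clcn7, Itpr1 and Mcoln1. Of 16 blood marker genes 15 had a promoter peak, Gata2 being the exception, against 7 of 12 neuron marker genes and 3 of 8 glia marker genes. Among the neuron markers Eno2, Gad2, Map2, Snap25, Syp, Syt1 and Tubb3 had one, whereas Rbfox3, Nefl, Stmn2, Gad1 and Slc17a7 had distal peaks only.

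**Figure D1:**
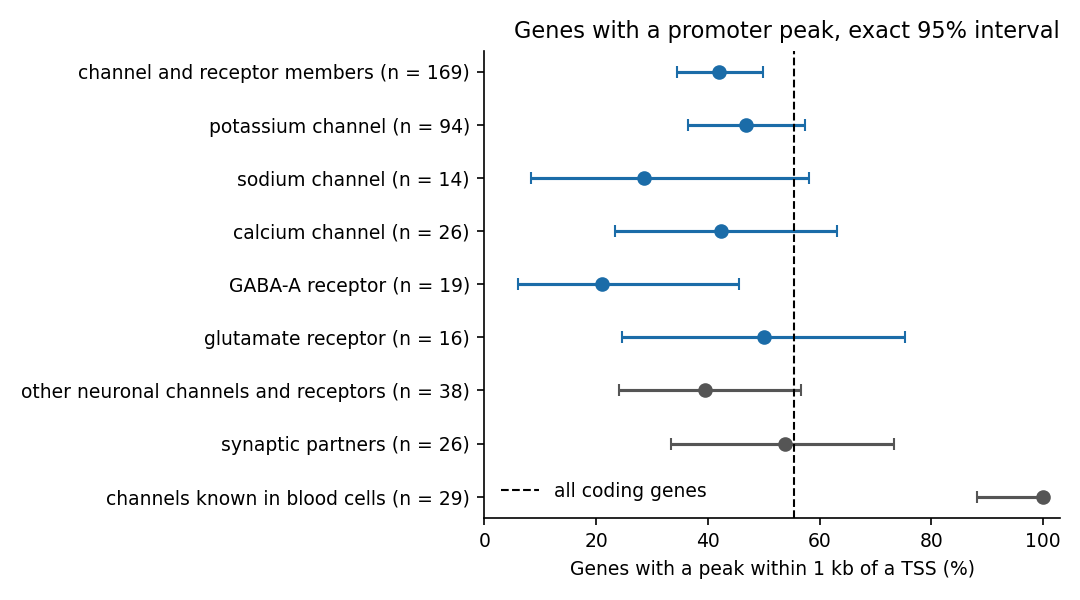
Points give the percentage of genes with a peak within 1 kb of a TSS and bars its exact 95% interval, for the members, their 5 classes and 3 lists of other genes. The dashed line is the 55.5% of all coding genes, above the 42.0% of the members and below the 29 of 29 channels known in blood cells.

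The classes of channels had different counts, but the intervals of all 5 overlap pairwise. Potassium channel genes had a promoter peak in 44 of 94 members (46.8%, exact interval 36.4 to 57.4), calcium channel genes in 11 of 26 (42.3%, 23.4 to 63.1) and glutamate receptor genes in 8 of 16 (interval 24.7 to 75.3). Sodium channel genes had one in 4 of 14 (28.6%, 8.39 to 58.1), and the other 10 all had distal peaks. GABA-A receptor genes had one in 4 of 19 (21.1%, 6.05 to 45.6), and 9 of the 19 had no peak. Pore-forming and ligand-binding subunits together had a promoter peak in 52 of 132 genes (39.4%) and auxiliary subunits in 19 of 37 (51.4%).

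**Figure D2:**
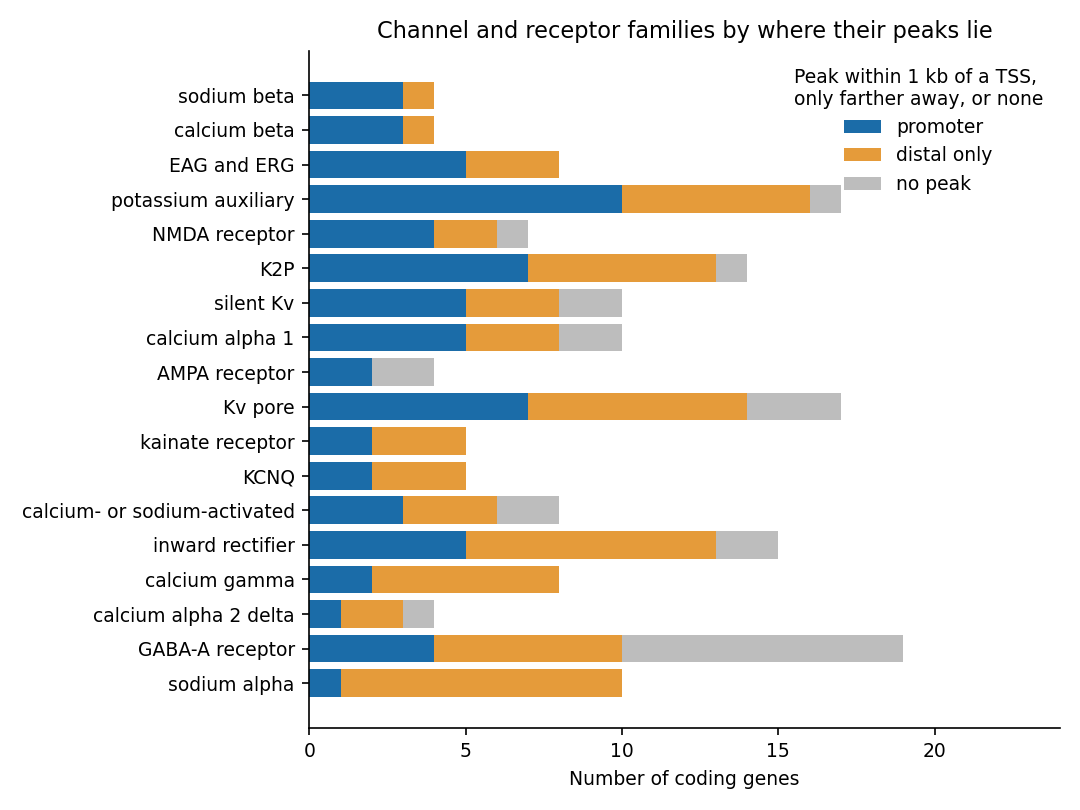
Bars give, for each family of coding members, the number of genes with a peak within 1 kb of a TSS, with peaks only farther away and with no peak. Families are ordered by their share of promoter peaks, from 3 of 4 in the sodium and calcium channel beta subunits to 1 of 10 in the sodium channel alpha subunits.

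Among voltage-gated potassium channels of the Kv pore family, 7 of 17 genes had a promoter peak. In Kcna3 the peak centre lay 89 bp downstream of the TSS and in Kcna4 72 bp upstream. Kcna7, Kcnc1 and Kcnd2 also had one, and the peaks of Kcna7 and Kcnd2 lay 697 and 601 bp upstream. Kcna2, Kcna5, Kcna6, Kcna10, Kcnc2, Kcnc4 and Kcnd3 had distal peaks only, and Kcna1, Kcnb2 and Kcnd1 had none.

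The silent Kv genes encode subunits that form no channel alone but modify other Kv channels, and 5 of 10 had a promoter peak. These were Kcnf1, Kcng2, Kcng3, Kcns1 and Kcns2, with Kcns2 at 11 peaks, of which 9 lay in the body of the neighbouring kinase gene Stk3. Kcng1 had the most, 19 peaks, none of them within 1 kb of its listed TSS. Kcng4 and Kcnv2 had distal peaks only, and Kcns3 and Kcnv1 had none. Of the EAG and ERG family 5 of 8 genes had a promoter peak: Kcnh1, Kcnh2, Kcnh3, Kcnh4 and Kcnh6. Kcnh2, the ERG channel that repolarises the heart, had 9 peaks and 2 of these at different starts, chr5:24329509-24330007 and chr5:24351559-24352057, centred 167 and 204 bp upstream. In the KCNQ family, which carries the M-current and cardiac potassium currents, Kcnq3 and Kcnq5 had a promoter peak while Kcnq1 was among the 3 with distal peaks only.

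Inward rectifiers, which hold the resting potential, had a promoter peak in 5 of 15 genes: Kcnj1, Kcnj2, Kcnj8, Kcnj10 and Kcnj11. Kcnj8 and Kcnj11 encode the pores of ATP-sensitive potassium channels, and their peaks were centred 39 bp upstream and 96 bp downstream of the TSS. This family held 98 peaks, the most of any. Kcnj4 and Kcnj14 had none. K2P channels, which carry background potassium current, had one in 7 of 14 genes: Kcnk4, Kcnk5, Kcnk6, Kcnk7, Kcnk10, Kcnk12 and Kcnk13. Kcnk5, Kcnk10 and Kcnk12 had 2 promoter peaks each. The Kcnk5 peaks, centred 52 and 728 bp downstream, lie side by side at 1 start (chr14:20181481-20181979 and chr14:20180805-20181303). Of the calcium- or sodium-activated channel genes Kcnn2, Kcnn3 and Kcnn4 had a promoter peak, 3 of 8. Kcnn4 led them with 8 peaks in and around a gene of 15.4 kb, none farther than 9.88 kb from its TSS, whereas Kcnma1, the BK channel pore, had 1 peak 213 kb away. Kcnk3, Kcnt2 and Kcnu1 had none.

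Auxiliary potassium channel genes had a promoter peak in 10 of 17. They included all 3 beta subunit genes Kcnab1, Kcnab2 and Kcnab3, the calcium sensors Kcnip2 and Kcnip3, the BK beta subunit genes Kcnmb2, Kcnmb3 and Kcnmb4, and Kcne1 and Kcne3. Kcnab2 had promoter peaks at 2 starts, chr4:152448428-152448926 and chr4:152477515-152478013, and the second also lay within 1 kb of a TSS of Nphp4. Kcne3 had 2 peaks at 1 start, centred 77 bp upstream and 706 bp downstream. Kcnmb1, the BK beta subunit of smooth muscle, had 10 peaks and none at its listed TSS, and all 10 lay within Kcnip1, the much longer gene that contains Kcnmb1. Kcnrg had no peak.

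Among sodium channel alpha subunits, which carry the rising phase of the action potential, only Scn3a of 10 genes had a promoter peak (chr2:65567316-65567814, centred 73 bp upstream of the TSS). All 6 peaks of Scn3a lay in its own gene body. The other 9, among them Scn1a, Scn2a1, Scn4a and Scn8a, had distal peaks only, from 1 in Scn9a to 7 in Scn11a. The beta subunit genes Scn2b, Scn3b and Scn4b had a promoter peak, 3 of 4, centred 925 bp upstream, 102 bp downstream and 456 bp upstream.

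Calcium channel alpha 1 subunit genes had a promoter peak in 5 of 10: Cacna1b, Cacna1c, Cacna1d, Cacna1e and Cacna1g. Cacna1e, the R-type channel of neurons, had 21 peaks, of which 19 lay in its gene body, and its promoter peak was centred 867 bp upstream of a listed TSS inside the gene (chr1:154726538-154727036). A further peak, chr1:154884386-154884884, lay at the outer end of the gene but is listed 159 kb from the TSS. Cacna1f of the retina and Cacna1s had none. Of the beta subunit genes Cacnb2, Cacnb3 and Cacnb4 had one. Cacnb4 had 20 peaks, 18 in its body, and its 3 promoter peaks lay at different listed starts. These were chr2:52676460-52676958 and chr2:52674830-52675328 at the outer end of the gene and chr2:52558381-52558879 well inside it. Only Cacna2d1 of the 4 alpha 2 delta genes and only Cacng2 and Cacng3 of the 8 gamma genes had a promoter peak, and the other 6 gamma genes had distal peaks only. Cacna2d3 had none.

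Gabra4, Gabre and Gabrq were among the GABA-A receptor genes with a promoter peak, and each had 1 peak. Gabrr1, a subunit of the retina, had the most peaks (7), and Gabra2, Gabra3, Gabrd and Gabrg1 were among the 9 without one. The clusters of these genes on chromosomes 5 and X held 5.01 and 3.41 peaks per Mb, against 36.9 over the autosomes and 11.3 over chromosome X. The Kv genes Kcna3, Kcna2 and Kcna10 lie together in 160 kb of chromosome 3 (107036162 to 107195721) with 17 peaks, or 107 per Mb, of which 4 were given to the non-coding gene AI504432. The Kv cluster of Kcna1, Kcna5 and Kcna6 on chromosome 6 held 19.2 peaks per Mb and no promoter peak of these genes. These clusters were picked for description after the values had been seen.

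Of the glutamate receptor genes, Gria2 and Gria3 (AMPA), Grik2 and Grik4 (kainate) and Grin1, Grin2c, Grin2d and Grin3a (NMDA) had a promoter peak. Grin1 encodes the subunit that every NMDA receptor needs, and its peak lay 192 bp downstream of the TSS in a 5' UTR. Grin2a and Grin2b, the main NMDA receptor partners of Grin1 in the forebrain, had 2 and 4 peaks, none closer than 27.8 and 162 kb. Gria1, Gria4 and Grin3b had no peak. Of the 5 non-coding members, Kcnq1ot1, the imprinted antisense transcript within Kcnq1, had 4 peaks with 1 centred 25 bp upstream of its TSS (chr7:143296323-143296821). Kcnq1 itself had no promoter peak by its listed TSS. Grin1os and Kcnmb4os1 had distal peaks only, and Kcnd3os and Kcnmb4os2 had none.

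Promoter peaks of the members lay farther from the TSS than those of other genes. Of the 71 coding members with a promoter peak, 47 (66.2%, exact interval 54.0 to 77.0) had one within 500 bp, against 94.3% of the 12139 coding genes with a promoter peak. The nearest peak was centred at a median of 167 bp from the TSS in members and 104 bp in all coding genes with a promoter peak. Over peaks, 30 of the 82 member peaks within 1 kb (36.6%, 26.2 to 48.0) lay more than 500 bp away, against 15.4% of all such peaks. Upstream of the TSS lay 49 of the 82 (59.8%, 48.3 to 70.4), against 44.7% of all. Members just inside the limit of 1 kb were Kcnj1 (981 bp), Grin2c (975 bp), Cacna1d (974 bp), Kcnmb3 (958 bp), Kcng3 (944 bp) and Scn2b (925 bp). Those just outside included Cacnb1 (1027 bp), Gabrb1 (1202 bp), Scn11a (1486 bp), Kcna2 (1516 bp), Kcnh8 (1563 bp), Grin1os (1764 bp), Scn2a1 (1792 bp) and Kcnj12 (1836 bp). Another gene's TSS was within 1 kb of 10 of the 82 promoter peaks, among them Cacna2d1 with Gm3510 and Kcnmb4 with Kcnmb4os2.

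**Figure D3:**
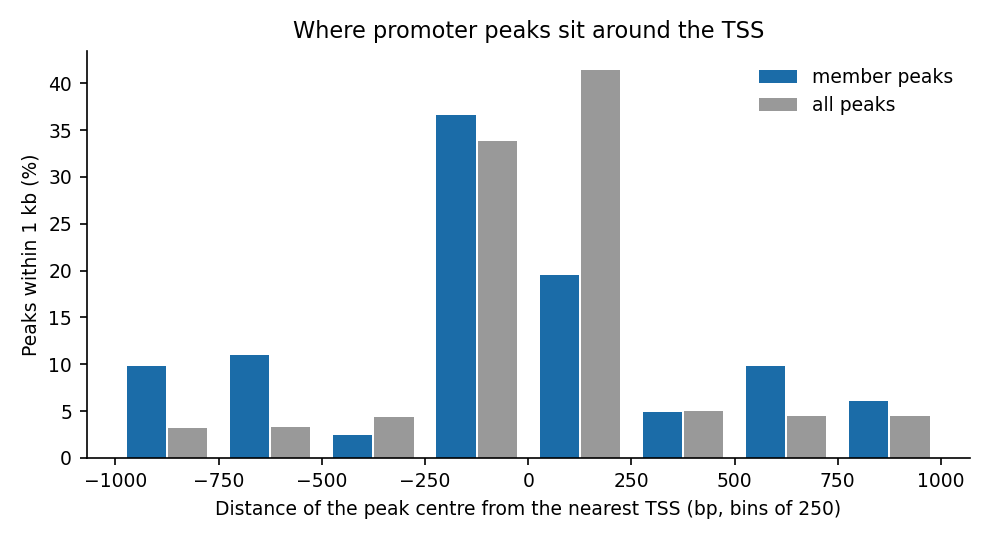
Bars give the percentage of peaks within 1 kb of a TSS in bins of 250 bp by the signed distance of the peak centre from the TSS in bp, for the 82 member peaks and all 15007 such peaks. Member peaks are spread more widely, with 30 of 82 beyond 500 bp.

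The start used mattered for a number of members. Of the 54 members with a promoter peak and an entry in the RefSeq promoter table, 15 (27.8%, exact interval 16.5 to 41.6) had no peak within 1 kb of the gene's outermost start, against 9.51% of coding genes. Among the longest of 10 length bins of genes the counts were 5 of 18 members (27.8%, 9.69 to 53.5) and 17.3% of all. The promoter peak of Cacna1c nearest to its TSS lay 439 kb inside the gene, that of Kcnab1 239 kb, that of the L-type channel gene Cacna1d 139 kb and that of Kcnip3 39.5 kb. In the other direction, 9 of the 85 members without a promoter peak whose orientation could be determined had a peak within 1 kb of the gene's outermost start. Counted in the promoter table alone these were 6 of 70 members (8.57%, exact interval 3.21 to 17.7), against 15.6% of all coding genes there without a promoter peak. In Kcng1 peaks were centred 416 and 97 bp from that start (chr2:168280868-168281366 and chr2:168281381-168281879), but the list measures them from a TSS 11786 and 12299 bp away. The outermost starts of Kcna2, Kcnk9 and Scn2a1 likewise had a peak of the same gene, at 585, 880 and 79 bp. The peak at Gabrb1 was given to its neighbour Gabra4, that at Kcnn1 to Ccdc124, that at Kcnj4 to Kdelr3 and that in the first exon of Kcnk3 to Gm9899.

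The second question was how many peaks the members have and where the distal ones lie. Coding members with a peak had 4.83 ± 4.33 peaks (SD over genes, n = 143) with a median of 3, and all coding genes with a peak had 4.87 ± 5.33 (n = 16451) with a median of 3. Members are long genes, with a median length of 54.4 kb against 17.2 kb. In the longest of the 10 length bins (genes over 109 kb), the 61 members had a median of 3 peaks and 39.3% had a promoter peak, against a median of 6 and 68.9% for all genes of that bin. In bin 9 the medians were 3 and 4. In bins 1 to 8, of shorter genes, the median of members was at or above that of all genes. The promoter share of members was lower in every bin but 2 and 3. There it was 60.0% of 5 members against 40.5%, and 55.6% of 9 members against 49.0%. Over all bins 79 of 169 members (46.7%) were below the median of their bin and 66 (39.1%) above, against 37.2% and 41.4% of all coding genes. Members without a peak were not short: their median length was 64.0 kb, against 4.82 kb for all coding genes without a peak. Distal-only members had a median of 3 peaks, and those with a promoter peak a median of 4.

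**Figure D4:**
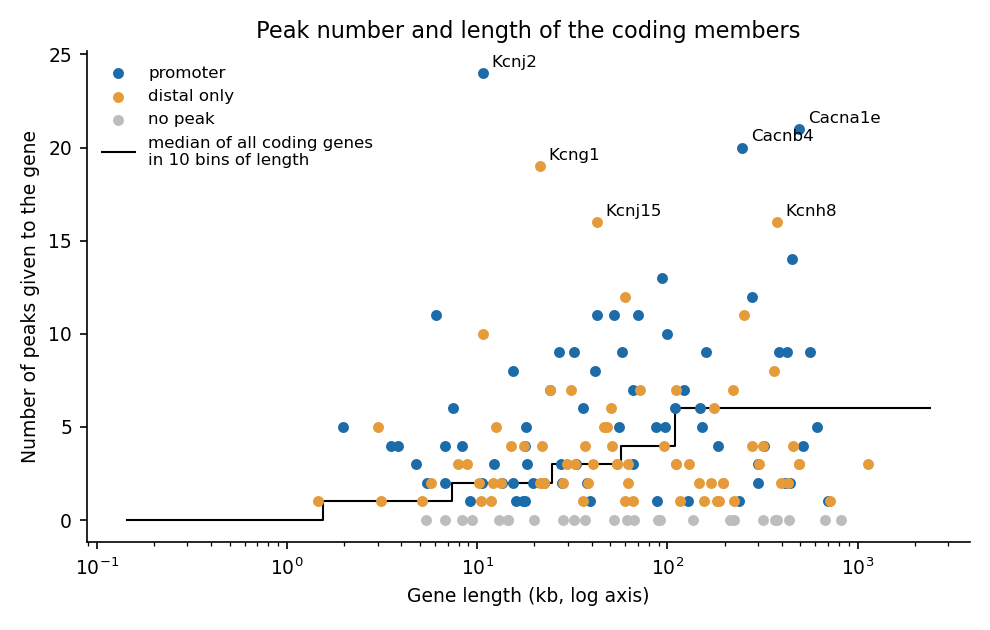
Each point is 1 coding member, by gene length in kb (log axis) and number of peaks given to it, coloured by whether it had a promoter peak, distal peaks only or none. The line is the median of all coding genes in each of 10 length bins, and many long members fall below it.

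The 15 members with the most peaks held 222 of the 698 (31.8%), and the 52 with at least 5 peaks held 476 (68.2%). This spread was close to that of all genes: 36.4% of coding members with a peak had at least 5 (exact interval 28.5 to 44.8), against 34.9% of coding genes with a peak. Of those 52, 18 (with 159 peaks) had none at the promoter, against 16.6% of all coding genes with at least 5 peaks. At the other end, 24 members, the non-coding Kcnmb4os1 included, had 1 peak, which lay at the promoter in 9 (among them Cacnb3, Cacng2, Gabra4, Grik2, Grin2d and Kcnk4), against 61.1% of all coding genes with 1 peak. More than 1 promoter peak was found in 9 members, against 7.86% of coding genes.

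Distal peaks of the members lay somewhat farther from the TSS than others. The median distance of the 616 member peaks beyond 1 kb was 30.2 kb, against 25.3 kb for all such peaks, and 111 of the 616 (exact interval 15.1% to 21.3%) lay over 100 kb away, against 14.8%. The interval takes peaks as independent, which peaks of 1 gene are not. Single members hold several of the far peaks, such as Kcnj2 (up to 792 kb) and Kcnh8 (up to 338 kb). Gene length was not accounted for in these distances. By annotation class 42.7% of member peaks were intron peaks and 43.1% Intergenic, against 42.0% and 39.3% of all peaks, and LTR repeats held 5.73% against 6.59%. The class Intergenic includes some peaks inside gene bodies of the gene table, as in Cacna1e. Of the 616 member peaks beyond 1 kb, 280 (45.5%) lay in the body of the member itself, 64 (10.4%) in that of another coding gene and 272 (44.2%) between coding genes. At least 1 peak in its own body was found for 48 of the 74 distal-only members, non-coding ones included.

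Kcnj2, which sets the resting potential of muscle and heart, had the most peaks of all members (24). Of these, 22 lay more than 1 kb downstream, as far as 792 kb away. The next coding gene of the table, Gm11677, begins 645 kb beyond Kcnj2, so the farthest peak lay past the start of Gm11677. None of the 24 lay in the body of Kcnj2, and 1 lay in that of another coding gene. In Kcnh8, a channel gene of the brain with 16 peaks, 15 lay upstream, up to 338 kb away, and the next coding gene on that side is Satb1, a chromatin organiser of thymocytes, 769 kb from Kcnh8, while Efhb lies 419 kb away on the other side. Kcng1, with 17 of 19 peaks upstream of its listed TSS and up to 152 kb away, faces Nfatc2, a transcription factor gene of T cells, across 195 kb, with Mocs3 27.8 kb away on the other side. Kcnj15 had 16 peaks, 13 of them between coding genes, and lies 58.9 kb from Erg, a transcription factor gene of blood stem cells. Its neighbour on the other side, 260 kb away, is Kcnj6, which encodes a G protein-gated channel and had 11 peaks. Kcnj16, the neighbour of Kcnj2, had 12, of which 11 lay upstream.

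**Figure D5:**
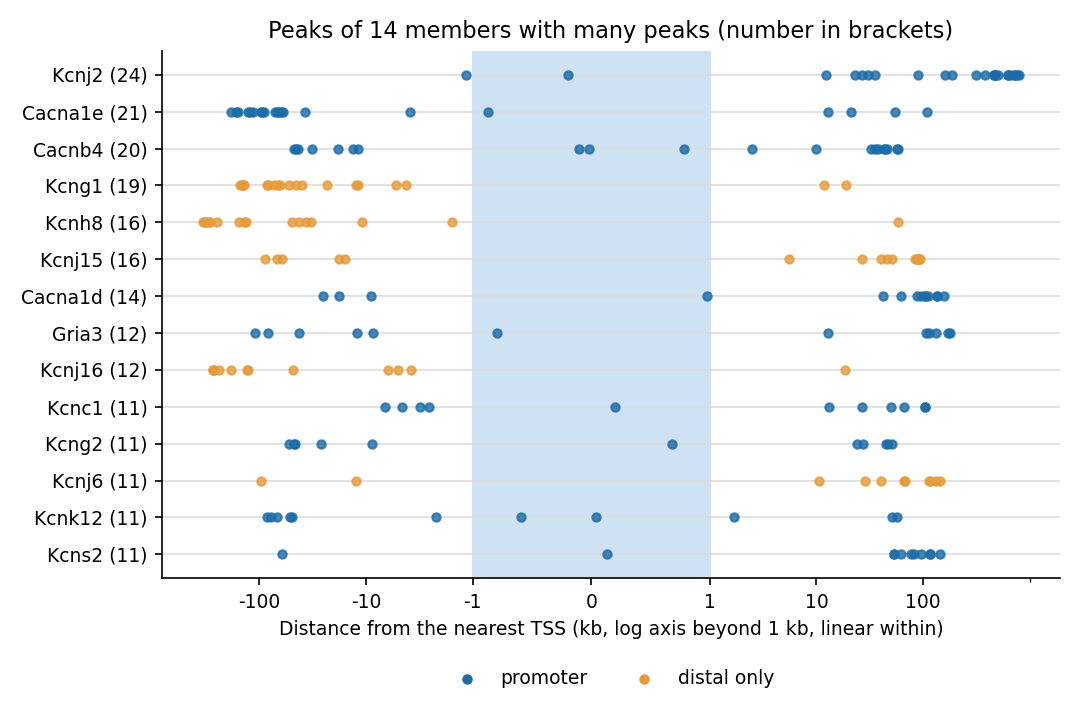
Each point is a peak of 1 of 14 members with many peaks (number in brackets), by its signed distance from the nearest listed TSS in kb (linear within the shaded 1 kb, log beyond). Kcng1, Kcnh8, Kcnj15, Kcnj16 and Kcnj6 have no point in the shaded band, and the peaks of Kcnj2 reach 792 kb downstream.

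The remaining members with at least 5 peaks and none at the listed promoter were Kcnmb1 (10 peaks), Kcnip1 (8), Cacna1i, Gabrr1, Kcna2, Kcnd3 and Scn11a (7 each), Kcnj12 and Scn8a (6 each), and Kcna5, Kcna10, Kcnk9 and Scn4a (5 each). Their nearest peaks lay from 1.49 kb (Scn11a) to 16.5 kb (Kcna5) from the TSS.

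Some peaks inside the bodies of member genes were given to other genes. The bodies of the 169 coding members held 527 peaks, of which 335 were given to the member and 192 to another gene, and 129 members had at least 1 peak in the body. The listed TSS of the other gene was not always nearer than the outermost start of the member. A peak 13 bp from that of Kcnn1 is listed 7812 bp from the TSS of Ccdc124. The share given to another gene was 36.4% (exact interval 32.3 to 40.7), against 26.4% of the peaks in all coding gene bodies. In the longest of the 10 length bins it was 45.7% (40.1 to 51.3) against 34.9%. Peaks of 1 gene body are not independent of each other. In Cacna1d 36 peaks lay in the body, 13 given to Cacna1d, 15 to the choline oxidation gene Chdh, 7 to 4831407H17Rik and 1 to Dcp1a. In Cacna1a, the P/Q-type channel gene, 9 of 12 were given to the immediate early gene Ier2, and in Scn4a 4 of 9 to Cd79b, a chain of the B cell receptor. Kcnip1 held 10 peaks given to Kcnmb1 and 1 given to Gabrp, and Kcnma1 8 given to Gm10248. Among the 26 coding members without a peak of their own, 8 (30.8%, 14.3 to 51.8) had a peak in the body that was given to another gene, such as Kcnk3 with 4 and Cacna1s, Gria4 and Kcnt2 with 2 each. Of all coding genes without a peak 12.9% had one in the body, and as given above these genes are shorter.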

How the data were processed

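The samples were 14 ATAC-seq libraries of 7 sorted populations. The deposited file is a list of 92842 merged peaks, each 499 bp wide. Per the file headers, annotatePeaks.pl annotated it on mm10, with HOMER at version 4.10.2 per the submitters' processing notes. For the aligner, peak caller, threshold and merging rule, the entry is "not given in the sources used here". Every deposited peak score is 0, so scores were left aside, and distances are in bp from the peak centre to the nearest TSS. No per-library values were analysed here, so depth is unknown.

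Genes were matched by Entrez identifier to a RefSeq table of GRCm38.p6, which has the chromosome sequences of mm10. Of 19105 identifiers 19072 (99.8%) matched. Peaks were counted per gene in Python 3.11.15 with pandas 2.3.3, and shares have exact (Clopper-Pearson) 95% intervals from scipy 1.17.1. Counting was tested on simulated peaks with known places. A gene body runs from the start to the end of its table entry. Orientation came from the promoter table, else from the signs of the listed distances or a peak in the first exon. Genes were put in 10 bins of length of nearly equal size. The text names members by a fixed rule: the 15 with the most peaks, all with a promoter peak, those with at least 5 peaks and none at the promoter, those whose nearest peak lay 500 bp to 2 kb away, up to 4 per family without a peak, and the leader of each family. Some members under this rule are not reported here. Other members were named after their values had been seen. Gene bodies, neighbours, clusters and outermost starts were chosen for description after their values had been seen. Members and lists were chosen with earlier results of these data known, so no set test was made. Alternatives were promoter windows of 500 bp and 2 kb, the annotation class, RefSeq starts, and subsets of members and peaks.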

Additional observations from a re-analysis of the deposited data

How the results depend on the processing

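With all 174 members counted, 72 had a promoter peak and 74 distal peaks only. These became 48 and 98 within 500 bp, 81 and 65 within 2 kb, and 55 and 91 by the annotation class promoter-TSS. The coding members alone gave 71 and 72, and the pore-forming and ligand-binding subunits 52 and 56. The lower share of coding members than of coding genes with a promoter peak held under each of these definitions: 27.8% against 52.3% within 500 bp, 46.7% against 58.4% within 2 kb and 32.0% against 42.8% by annotation class. Among the 124 coding members with an entry in the promoter table, 54 had a promoter peak by the listed TSS (43.5% against 55.7%), 45 at the start of the gene (36.3% against 57.3%) and 56 at any RefSeq TSS (45.2% against 61.7%), with 55, 65 and 53 distal-only members. The last of these settings was chosen after seeing the data. The share of member peaks at promoters moved from 11.7% to 7.45% within 500 bp and 14.6% within 2 kb, against 16.2%, 13.7% and 19.7% of all peaks, and was 12.0% without Kcnj2. Mean peaks per member was 4.83 as reported and lay between 4.02 (by the transcript named in the annotation) and 4.70 (without Kcnj2, added after seeing the data) in the alternatives. Per 100 kb of gene length the median was 7.42 peaks, taken over coding members with a peak only. The planned comparison of promoter CpG content was not run, because too few members have an entry. No paired analysis was possible because the list has no column per library. Depth is unknown, and a gene without a peak is one to which the list gave none, which does not show it closed. Of the 26 such coding members, 8 had a peak in the body that was given to another gene.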
